A study of Mus musculus with 9 samples.

Results

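The comparison set T cells stimulated with antibodies against CD3e and CD28 against T cells cultured with dendritic cells of their own strain. Of the 9 arrays of the series, 6 entered it: the 3 titled as anti-CD3/CD28 cultures and the 3 titled as syngeneic cultures, joined by the replicate number (1, 2 or 3) that the titles give. All T cells were from C57BL/6 mice and were cultured for 24 h. In the syngeneic group, C57BL/6 dendritic cells were added at 20 T cells per dendritic cell. In the anti-CD3/CD28 group, anti-CD3e and anti-CD28 (labelled mAB9) were present at 0.1 µg/ml and the labels name no dendritic cells. The third group of the series, C57BL/6 T cells with allogeneic BALB/c dendritic cells, entered only the estimate of spread and the side-by-side values at the end. After culture, T cells were separated from CD11c-positive cells with magnetic beads by negative selection, exposed to UVA light (400 mJ/cm2 in the first dose) and lysed. RNA bound to Argonaute (AGO) proteins was precipitated with an AGO antibody, amplified and hybridised to 1 mouse expression array per sample. The arrays therefore measured mRNA that came down with AGO, and with no arrays of the input RNA used here, a difference in RNA abundance and a difference in AGO binding cannot be told apart. The 2 groups differ both in the stimulus and in the presence of dendritic cells, and these cannot be told apart either. The study set out to find changes that are particular to alloreactive T cells and absent from unspecific stimulation, and the antibody culture is its unspecific stimulus.

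AGO proteins carry microRNAs, pair them with target sites in mRNAs and recruit factors that repress translation and shorten the mRNA. Antibodies against CD3e and CD28 engage the T cell receptor complex and its main costimulatory receptor, which starts growth, nutrient uptake, DNA synthesis and cytokine secretion in resting T cells. Dendritic cells of the same strain present self peptides and supply survival signals and cytokines, including type I interferon in some settings, without a foreign antigen.

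The deposited values were log2 signals, on which a difference of 1 is a factor of 2, for 45101 probe sets. They reduced to 18193 genes, each represented by its brightest probe set. Arrays of one replicate number shared nearly the same median (4.58 to 4.59 in number 1, 5.60 to 5.67 in number 2, 4.81 to 4.93 in number 3), while the numbers differed from each other. Between the anti-CD3/CD28 and the syngeneic array of one number, 34.2%, 29.5% and 22.3% of genes had exactly the same value in numbers 1, 2 and 3, and no 2 arrays of different numbers shared any. Such equality may come from the processing and is not read as no change, and 58.6% of genes had one in at least 1 number. The anti-CD3/CD28 and allogeneic arrays of number 1 stood apart from all other pairs: 51.3% of their probe sets were exactly equal and their differences over genes had an SD of 0.10, against 0.49 and 0.68 for the same pair of groups in numbers 2 and 3. Whether these 2 arrays hold the cultures that their labels name was not tested, and each difference in number 1 carries that limit. Results are therefore given within each number, so that numbers 2 and 3 can be read without number 1. The labels call the numbers biological replicates but do not say whether they were separate animals or cultures, so p-values measure the spread between these arrays, which may be partly technical.

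Genes of the T cell receptor and its coreceptors were among the brighter genes of every array. All 20 measured genes of the list lay above the array median on all 6 arrays, with mean levels of 9.10 to 10.3 in the syngeneic and 9.67 to 10.6 in the anti-CD3/CD28 arrays. The list's median difference was 0.17 (-0.07, 0.44 and 0.20 in numbers 1, 2 and 3). Cd3e, the signalling chain that the stimulating antibody binds, read 11.01, 10.31 and 11.36 in the syngeneic and 10.94, 10.72 and 11.45 in the anti-CD3/CD28 arrays of numbers 1, 2 and 3, with overlapping groups. Cd4 and Cd8a, which mark the helper and cytotoxic lineages, differed by -0.24 ± 0.25 and 0.30 ± 0.14 (mean ± SE of the limma fit, n = 3 per group, as for each ± below unless stated). In bulk samples such as these, fewer cells of a type and less RNA per cell cannot be told apart.

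No gene was called between the groups. In limma with the replicate number as a block and Benjamini-Hochberg adjustment, 0 of 18193 genes (0%) passed an adjusted p of 0.05 in either direction, and the smallest adjusted p was 0.677. Before adjustment, 406 genes (2.23%) had a p under 0.05 and were higher in the anti-CD3/CD28 arrays, and 830 (4.56%) were lower. Direction was the same in all 3 numbers for 1419 genes that were higher (7.8%) and 1665 that were lower (9.15%). A gene with an exactly equal pair cannot count here, and of the 7528 genes with none 18.8% were higher and 22.1% lower. Among the 8557 genes above the array median on all 6 arrays these shares were 11% and 14.5%. A difference of 1 or more in the same direction in all 3 numbers was found for 14 genes that were higher (0.077%) and 75 that were lower (0.412%). The groups did not overlap, with every anti-CD3/CD28 array above every syngeneic array, for 75 genes (0.412%), and with every one below for 276 (1.52%). Overlap sets arrays of different numbers against each other, and array medians differed between numbers. Whether groups overlap, here and below, therefore also depends on level differences between numbers. The median difference over all genes was 0 in every number. An exact sign-flip test on 3 pairs cannot go below a two-sided p of 0.25, so no single gene can pass on its own pairs. What follows describes values within the numbers, with no call behind any of them.

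**Figure D1:**
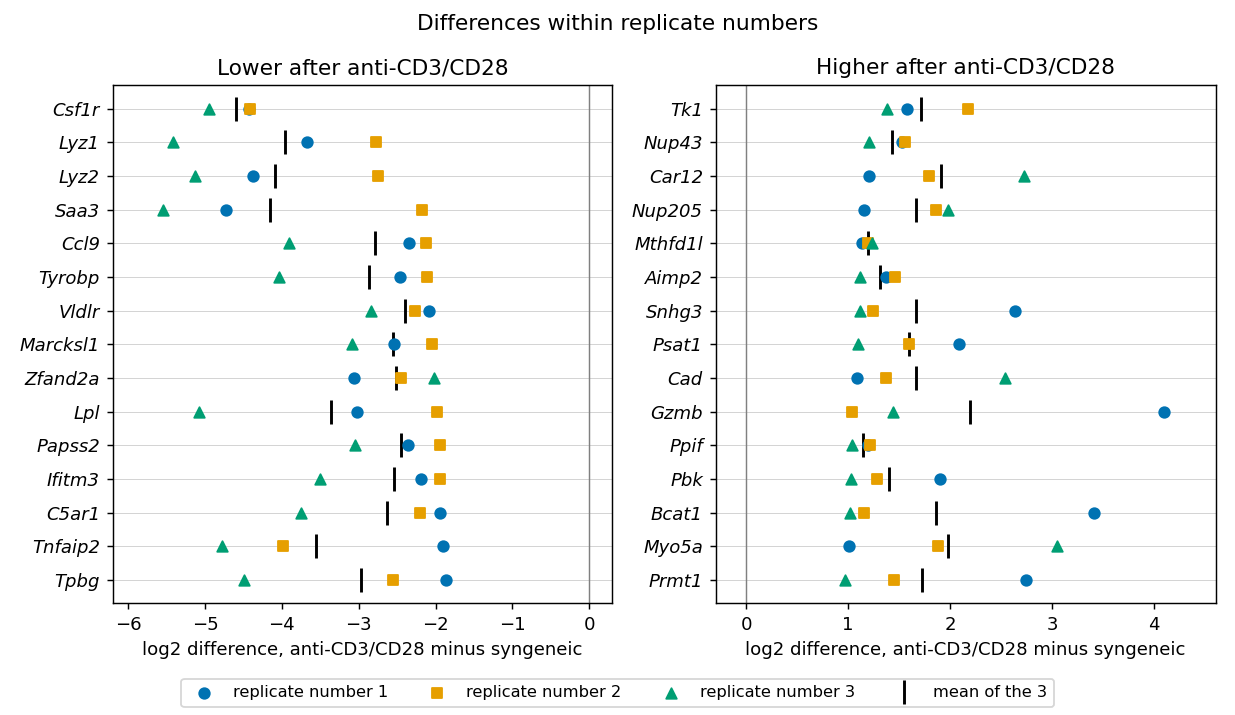
Differences in log2 signal (horizontal axis, anti-CD3/CD28 minus syngeneic) within replicate numbers 1, 2 and 3 for the 15 genes per direction whose smallest difference was largest, with the mean of the 3 as a bar. For Csf1r all 3 numbers lie below -4, while most lower genes lie farthest from 0 in number 3, and no higher gene passes 2 in all 3 numbers.

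The 14 genes that were higher by 1 or more in all numbers included genes of nucleotide, amino acid and cell division pathways, and 5 of them belong to the growth lists described next. Their median differences were 1.45, 1.41 and 1.22 in numbers 1, 2 and 3. For 4 of the 14 the groups did not overlap, against 0.412% of all genes with every anti-CD3/CD28 array above every syngeneic array. The 14 were already selected for the size of their difference. Tk1, the thymidine kinase of S phase, read 4.43, 5.57 and 6.76 in the syngeneic and 6.01, 7.74 and 8.14 in the anti-CD3/CD28 arrays. It was higher in each number, by 1.57, 2.17 and 1.38, although the groups overlapped. Gzmb, the cytotoxic protease granzyme B, read 6.78, 9.15 and 9.98 in the syngeneic and 10.88, 10.19 and 11.42 in the anti-CD3/CD28 arrays. Its groups did not overlap, and its mean difference of 2.19 ± 0.70 rested most on number 1, where it was 4.09 against 1.04 and 1.44. Bcat1, which transaminates branched-chain amino acids in the cytosol, had the same shape, with 3.40, 1.15 and 1.01. Nup43 (1.43 ± 0.45) and Nup205 (1.66 ± 0.40) encode scaffold subunits of the nuclear pore. Aimp2, a scaffold of the multi-synthetase complex, differed by 1.37, 1.45 and 1.12, and Ppif, the mitochondrial cyclophilin, by 1.19, 1.21 and 1.03. Car12 (carbonic anhydrase), Snhg3 (a host transcript of small nucleolar RNAs), Pbk (a mitotic kinase) and Myo5a (an unconventional myosin) completed the group with mean differences of 1.40 to 1.98, besides Mthfd1l, Psat1 and Cad below. Prmt1, the main arginine methyltransferase, lay just outside at 0.97 in number 3, as did Mcm3 at 0.97 in number 2, and Bcat1 and Myo5a lay just inside at 1.01. For 9 of the 14 genes the array holds several probe sets, and in all 9 every probe set had the same sign.

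Enzymes of one-carbon metabolism and of purine, pyrimidine and serine synthesis were higher after anti-CD3/CD28. All 21 measured genes had a mean difference above 0, 16 were higher in all 3 numbers and none was lower in all 3, against 7.8% and 9.15% of all genes. Of these 21, 19 had no equal pair, and among all genes with none the shares were 18.8% and 22.1%. Their median was 0.82 (1.04, 0.90 and 0.61 in numbers 1, 2 and 3), and 10 had an unadjusted p under 0.05. Psat1, the aminotransferase of serine synthesis, read 9.18, 9.42 and 10.84 in the syngeneic and 11.27, 11.02 and 11.94 in the anti-CD3/CD28 arrays. Every anti-CD3/CD28 array was above every syngeneic one, and the mean difference was 1.59 ± 0.55 (adjusted p 0.727, limma). Umps, which completes the synthesis of UMP, was higher by 1.53, 1.14 and 0.94 without overlap of the groups (1.20 ± 0.17), with all 4 probe sets of one sign. Cad, which starts pyrimidine synthesis, differed by 1.09, 1.37 and 2.53. Mthfd1l, a mitochondrial one-carbon enzyme, differed by nearly the same amount each time, 1.14, 1.20 and 1.24. Psph and Adsl, of serine and purine synthesis, differed by 0.71 ± 0.18 and 0.77 ± 0.22. Of further members chosen after their values were seen, Shmt2, the mitochondrial serine hydroxymethyltransferase, differed by 1.37, 0.74 and 1.36, with all 4 probe sets of one sign and no overlap of the groups. Pfas of purine synthesis differed by 1.83, 1.11 and 0.88.

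Genes of DNA replication and the G1/S transition were higher, less so in number 3. Of 41 measured genes, 27 were higher in all 3 numbers and 1, Cdt1 (chosen after its values were seen), was lower in all 3 by 0.04 to 0.30. No equal pair occurred in 39 of the 41, and among all genes with none the shares were 18.8% and 22.1%. The list's median was 0.78, with 0.88, 0.73 and 0.24 in numbers 1, 2 and 3. Chaf1b, a subunit of the chromatin assembly factor that follows the replication fork, read 5.86, 6.87 and 8.23 in the syngeneic and 6.59, 7.96 and 9.38 in the anti-CD3/CD28 arrays, a difference of 0.99 ± 0.17. Cdc45 and Mcm10, which act in activation of the replicative helicase, differed by 0.90 ± 0.23 and 0.91 ± 0.24. For each of these the groups overlapped, because levels differed more between numbers than within them. Members chosen after their values were seen show the split by number: Gins1 differed by 3.22, 1.43 and 0.02, Cdc6 by 2.92, 0.54 and 0.06, while Mcm2 differed by 1.51, 0.77 and 2.13.

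Genes of mitosis had the same split. Of 38 measured genes 37 had a mean difference above 0, 20 were higher in all 3 numbers and none was lower in all 3. No equal pair occurred in 37 of the 38, and among all genes with none 18.8% were higher and 22.1% lower. The median was 0.72, with 1.06 and 1.03 in numbers 1 and 2 and 0.26 in number 3. Without number 3 the list's median was 1.25. Kif20a, a kinesin of cytokinesis, read 6.99, 7.52 and 8.28 in the syngeneic and 8.52, 9.19 and 8.78 in the anti-CD3/CD28 arrays. Kif11, the kinesin that separates spindle poles, read 6.71, 7.62 and 7.16 against 7.84, 8.97 and 7.93. For both genes the groups did not overlap, and the mean differences were 1.23 ± 0.29 and 1.09 ± 0.26. Racgap1 and Hmmr, of the central spindle and the spindle poles, differed by 0.66 ± 0.17 and 0.68 ± 0.18. Cdk1, the mitotic kinase, chosen after its values were seen, differed by 3.59, 1.56 and 0.60, also without overlap. In number 3 other members lay below 0, among them Spc25 at -2.35 and Ccnb2 at -1.29, both also chosen after their values were seen. Many mitotic genes carry a cell cycle genes homology region (CHR), TTTGAA, near the start, and 26 of the 32 members with a RefSeq promoter (81.25%) had these letters on either strand from 250 bases before to 50 after a start, against 20.2% of 27018 genes. Members with the letters were higher in all 3 numbers in 13 of 26 cases and members without them in 3 of 6. The 250 bases before the start of Kif11 (chr19:37376132-37376381, plus strand) and Cdk1 (chr10:69352913-69353162, minus strand; RefSeq, GRCm38.p6) show where the letters lie, in capitals, 19 bases before the start in Kif11 and 71 and 15 bases before it in Cdk1. Both are printed 5′ to 3′ in the direction of the gene.
Kif11: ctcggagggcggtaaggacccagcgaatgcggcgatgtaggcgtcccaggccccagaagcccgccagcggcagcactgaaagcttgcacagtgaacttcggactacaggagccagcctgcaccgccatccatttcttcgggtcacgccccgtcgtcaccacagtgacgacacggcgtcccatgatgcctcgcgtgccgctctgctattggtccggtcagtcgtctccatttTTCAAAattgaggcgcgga
Cdk1: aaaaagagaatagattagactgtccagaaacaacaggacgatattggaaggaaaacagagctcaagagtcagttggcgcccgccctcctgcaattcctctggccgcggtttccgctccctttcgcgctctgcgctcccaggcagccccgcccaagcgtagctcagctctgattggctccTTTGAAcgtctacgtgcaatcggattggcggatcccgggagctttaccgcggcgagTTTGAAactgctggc
The match is of letters only.

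Genes of ribosome assembly and protein synthesis were higher by smaller amounts, which varied little between numbers for ribosome biogenesis. All 28 measured genes of ribosome biogenesis had a mean difference above 0 and 20 were higher in all 3 numbers, with a median of 0.53 and medians of 0.34, 0.46 and 0.43 in the 3 numbers. Nop56, a core protein of the particles that methylate ribosomal RNA, differed by 0.52, 0.51 and 0.44. Its partner Nop58 read 9.69, 10.47 and 10.42 in the syngeneic and 10.88, 11.18 and 11.83 in the anti-CD3/CD28 arrays, without overlap (1.10 ± 0.16). Gar1 and Utp20, of RNA pseudouridylation and small subunit processing, differed by 0.81 ± 0.18 and 0.98 ± 0.24. Of 18 aminoacyl-tRNA synthetases, 12 were higher in all 3 numbers and none lower. Their median was 0.49 (0.43, 0.39 and 0.74 in numbers 1, 2 and 3). Iars differed by 1.45, 0.69 and 1.14 and Nars by 0.52, 0.66 and 0.66 (isoleucine and asparagine). Farsa of the same list differed by 2.18, 0.20 and 1.93. Translation factors had a median of 0.15, and 6 of 19 were higher in all 3 numbers, led by the RNA helicase Eif4a1 (0.77, 1.16 and 0.94). Of these lists the cytosolic ribosomal proteins stood closest to all genes, with a median of 0.09, 4 of 28 higher in all numbers and 1 lower. Rpl11, the member with the smallest p, differed by 0.18, 0.48 and 0.06. The biogenesis, synthetase, translation factor and ribosomal protein lists had 26, 15, 14 and 18 members with no equal pair. Among all such genes 18.8% were higher in all numbers and 22.1% lower.

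Proteasome and chaperone genes were also higher in numbers 1 and 2 and close to 0 in number 3. Of 26 proteasome subunits 16 were higher in all 3 numbers and none lower, with medians of 0.52, 0.40 and 0.06. Psmb2 and Psmb5, of the catalytic core, differed by 0.80 ± 0.16 and 0.78 ± 0.20. The interferon-inducible immunoproteasome and peptide-loading genes did not share this: 0 of 12, of which 7 had no equal pair, were higher in all numbers, with a median of -0.04. Of the chaperonins and cytosolic chaperones 9 of 19 were higher in all numbers, and Hspd1, the mitochondrial chaperonin, differed by 1.00, 0.66 and 0.31 without overlap. In glycolysis 6 of 12 genes were higher in all numbers and 1 lower. Ldha, which makes lactate, differed by 0.80, 0.63 and 0.24, while Pfkfb3, which makes the activator of phosphofructokinase, was lower by 0.84, 1.16 and 2.55. Among 13 transporters 5 were higher and 1 lower in all numbers, with a median of 0.23. Slc7a5 of large neutral amino acids read 6.99, 7.82 and 8.11 in the syngeneic and 8.52, 8.16 and 9.20 in the anti-CD3/CD28 arrays, without overlap. Slc38a2 was lower by 0.37, 0.38 and 0.37, a sign that changed in the mean of all its probe sets. The proteasome, chaperone, glycolysis and transporter lists had 22, 15, 12 and 11 members with no equal pair. Among all such genes 18.8% were higher in all numbers and 22.1% lower.

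**Figure D2:**
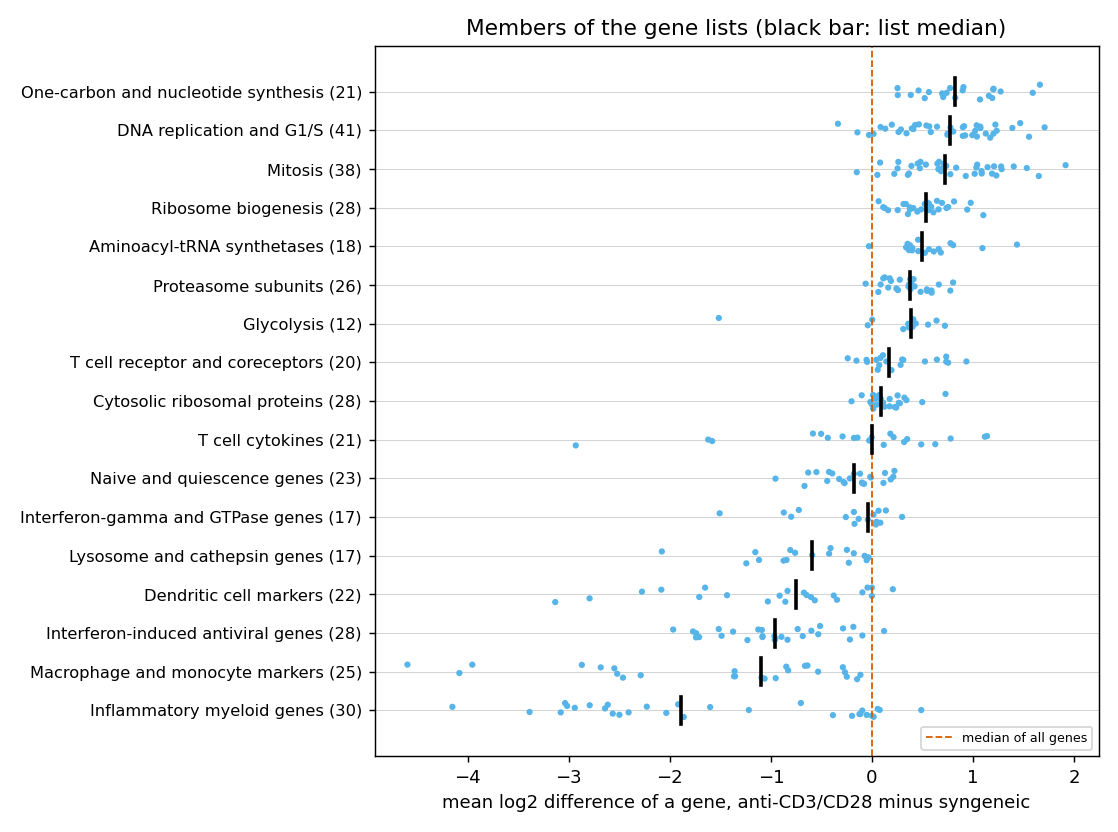
Mean log2 difference (horizontal axis, anti-CD3/CD28 minus syngeneic) of each measured member of 17 gene lists, 1 point per gene, with the list median as a black bar and the median of all genes as a dashed line. Members of the nucleotide, replication and mitosis lists lie mostly above 0, and those of the antiviral, macrophage and inflammatory lists mostly below.

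Immediate activation genes went both ways. Of 15 factors of the Nr4a, Egr and related families, 11 with no equal pair, 4 were higher and 3 lower in all 3 numbers. Among all genes with no equal pair, 18.8% were higher and 22.1% lower. The list's median was -0.07. Nr4a1, an orphan nuclear receptor induced by the T cell receptor, read 6.04, 6.34 and 6.57 in the syngeneic and 6.64, 7.93 and 8.72 in the anti-CD3/CD28 arrays. It was above every syngeneic array on every anti-CD3/CD28 array, by 1.45 ± 0.54. Its relative Nr4a3, chosen after its values were seen, differed by 1.05, -0.06 and -1.23. Myc, which drives growth genes, read 9.16, 9.96 and 11.11 against 9.98, 10.81 and 12.15, and was higher by 0.82, 0.85 and 1.03. Bhlhe40 and Nfil3, transcription factors of cytokine programmes, were lower, by 0.16, 1.04 and 2.80 and by 0.92, 0.34 and 3.89. Of 12 AP-1 factors, 6 with no equal pair, 1 was higher and 3 were lower in all numbers. Fosl2 read 8.85, 9.16 and 9.85 in the syngeneic and 7.76, 7.29 and 6.34 in the anti-CD3/CD28 arrays, with no overlap (-2.15 ± 0.64). Jun differed by 0.17, -1.39 and -2.56 and Fos by -0.24, -0.52 and -2.61.

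Among 19 surface genes of activated T cells, 16 with no equal pair, 6 were higher and 2 lower in all numbers, with a median of 0.04. Over all genes with no equal pair, 18.8% were higher and 22.1% lower. Il2ra and Il2rb, chains of the interleukin 2 receptor, were higher by 0.69, 0.28 and 0.25 and by 0.75, 0.68 and 0.91. Lag3, an inhibitory receptor, read 5.31, 5.81 and 6.64 against 5.86, 6.35 and 7.16, a difference of 0.55, 0.54 and 0.52. Ctla4, another inhibitory receptor, was higher by 1.08, 0.76 and 0.24. Icam1, an adhesion molecule that many leukocytes carry, read 10.80, 10.52 and 11.32 against 10.04, 9.43 and 10.51. Its groups did not overlap and its difference was -0.89 ± 0.13. Cd69, an early activation antigen chosen after its values were seen, differed by 1.27, -0.27 and -0.28.

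Cytokine genes went both ways, and several changed sign with the number. Of 21 measured genes, 16 with no equal pair, 3 were higher and 2 lower in all numbers, and the median was 0.00. Among all genes with no equal pair 18.8% were higher and 22.1% lower, so these counts do not set cytokine genes apart. Ccl5, a chemokine of effector T cells, read 11.41, 10.60 and 12.26 in the syngeneic and 10.26, 8.26 and 10.89 in the anti-CD3/CD28 arrays. It was lower by 1.15, 2.35 and 1.37, with overlapping groups. Ccl3 was higher by 0.82, 0.66 and 0.86 and Ccl4, a related chemokine, by 0.84, 0.23 and 2.28. Lta, a lymphotoxin chain, differed by 1.80, -0.08 and 1.69. Chosen after their values were seen, Ifng (interferon gamma) differed by 2.66, -0.71 and -1.41 and Il2 (interleukin 2) by 2.04, -1.12 and 0.96, while Il17a differed by -0.77, -0.77 and -7.25. Cytotoxic granule genes were as mixed: of 15, 8 with no equal pair, 2 were higher and 2 lower in all numbers. Beside Gzmb, Nkg7 was higher by 0.30, 0.52 and 0.63. Gzma and Gzmc were lower by 0.41, 1.25 and 3.39 and by 0.27, 0.63 and 3.21. Prf1, the pore-forming perforin, differed by 0.02 ± 0.18. Eomes, a T-box factor of cytotoxic and natural killer cells, read 7.44, 7.25 and 8.27 against 8.22, 8.46 and 9.58 (1.10 ± 0.22). Among 11 natural killer cell markers, 4 with no equal pair, it was the only one higher in all numbers.

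**Figure D3:**
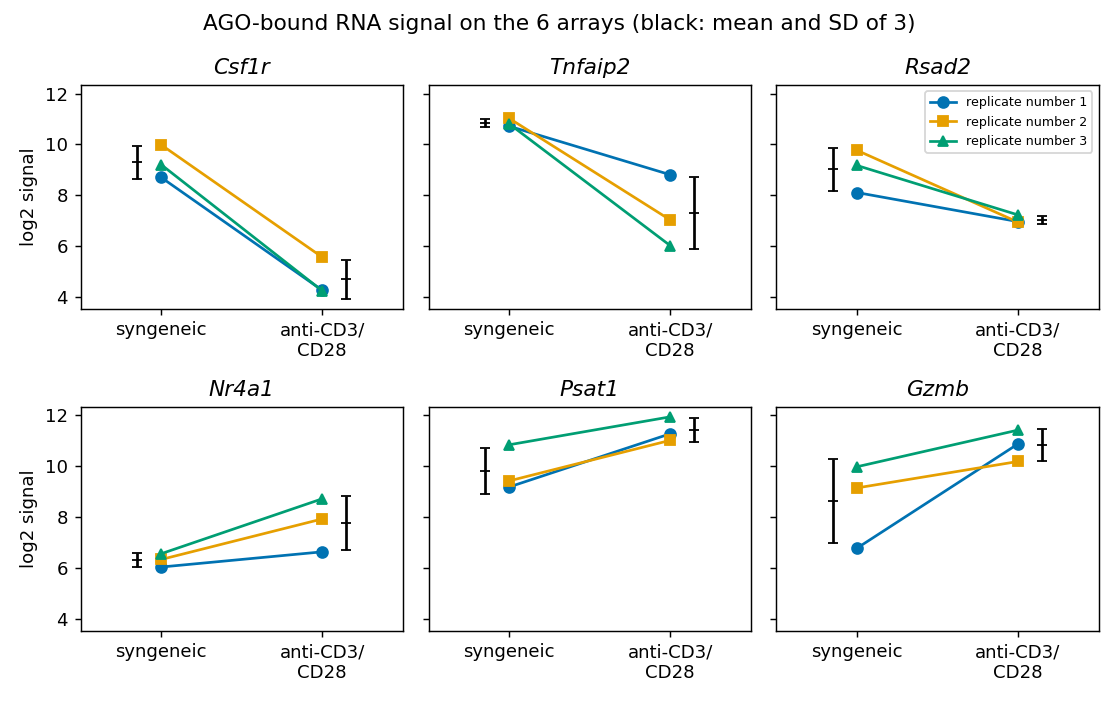
Log2 signal (vertical axis) of 6 genes on the 3 syngeneic and 3 anti-CD3/CD28 arrays, with lines joining arrays of one replicate number and black marks for the mean and SD of 3. Csf1r, Tnfaip2 and Rsad2 are lower and Nr4a1, Psat1 and Gzmb higher on every anti-CD3/CD28 array than on every syngeneic array.

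Genes of naive and quiescent T cells were lower more often than higher. Of 23 measured genes, 18 with no equal pair, 10 were lower and 1 higher in all numbers. Among all genes with no equal pair, 22.1% were lower and 18.8% higher. In the list 5 genes had a mean difference above 0, and the median was -0.18 (-0.38, -0.04 and -0.09). In number 3 Klf3, Foxo3 and Txnip, chosen after their values were seen, were higher by 1.08, 0.89 and 0.87. Cdkn1b, the cell cycle inhibitor p27, read 10.46, 10.66 and 10.44 in the syngeneic and 9.85, 10.13 and 9.92 in the anti-CD3/CD28 arrays. Its groups did not overlap and its difference was close to the same each time, -0.61, -0.52 and -0.52, although 1 of its 2 probe sets had the other sign. Foxo1, which keeps T cells quiescent, was lower by 0.87, 0.47 and 0.67, and Klf6 by 0.70, 0.11 and 0.47. Satb1, a chromatin organiser, was lower by 0.31, 0.16 and 0.34, a sign that changed in the mean of all its probe sets. Of 11 regulatory T cell genes, 8 with no equal pair, 3 were higher and 3 lower in all numbers. Ikzf4 read 10.43, 10.48 and 10.40 against 10.27, 9.04 and 8.61, and Foxp3, the factor that defines these cells, chosen after its values were seen, differed by -0.42, 0.00 and 0.06.

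The genes that were lower by 1 or more in all numbers were led by members of the macrophage and monocyte list, and which cells they came from was not tested. Of the 75 genes, 22 belong to any of the 39 lists, which together hold 774 of the 18193 genes. Lists of myeloid, lysosomal and antigen-presenting genes hold 15 of the 75, the interferon lists 5 and the growth lists none. For 60 of the 75 the difference was farthest from 0 in number 3, and their medians were -1.48, -1.94 and -3.46 in numbers 1, 2 and 3. In 54 of the 75 the groups did not overlap, against 1.52% of all genes with every anti-CD3/CD28 array below every syngeneic array. The 75 were already selected for the size of their difference. With several probe sets in 48 of the 75, every probe set had the same sign in 37. Spred1 and Ctsl lay just inside the limit, at 1.01 and 1.00 below the syngeneic array in their closest number, and Sema4a and Plin2 just outside, at 0.996 and 0.989. Leaving out number 1, 2 or 3, 353, 143 and 97 genes were lower by 1 or more in both remaining numbers, and 71, 38 and 81 were higher. With the mean of all probe sets of a gene, 40 genes were lower and 7 higher in all 3 numbers, and with quantile normalisation 74 and 23.

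Csf1r led this group, and it encodes the growth factor receptor on which macrophages depend. It read 8.71, 9.99 and 9.21 in the syngeneic and 4.28, 5.58 and 4.26 in the anti-CD3/CD28 arrays, which were at or under the array median, so that the size of the difference is not exact. The differences of -4.43, -4.41 and -4.95 were nearly equal over the numbers, and the limma mean was -4.60 ± 0.47 (adjusted p 0.677), with 2 of 3 probe sets of that sign. Lyz2 and its near-identical copy Lyz1, the lysozymes of phagocytes, read 12.61, 10.87 and 11.44 and 11.28, 11.01 and 11.32 in the syngeneic and 8.23, 8.12 and 6.32 and 7.60, 8.24 and 5.91 in the anti-CD3/CD28 arrays. Probes may not separate the 2 lysozymes, and both were lower without overlap. Saa3, an acute-phase protein, was lower by 4.73, 2.18 and 5.55, and the chemokine Ccl9 by 2.34, 2.13 and 3.91. Tyrobp, the adaptor of many activating myeloid and natural killer receptors, read 7.71, 9.64 and 10.01 against 5.25, 7.53 and 5.97. C5ar1, the complement C5a receptor, was lower by 1.94, 2.21 and 3.75, with overlapping groups. Tnfaip2, a protein induced by tumour necrosis factor, read 10.72, 11.03 and 10.81 against 8.82, 7.04 and 6.04, with an SD of 0.16 over the syngeneic arrays. Lpl and Vldlr, a lipase and a receptor of lipoprotein triglyceride, were lower by 3.02, 1.98 and 5.07 and by 2.09, 2.27 and 2.84. On all 3 anti-CD3/CD28 arrays Tpbg, Chil3 and Thbs1 were also at or under the array median, as were 9 of the 75 genes in all, so these sizes are not exact either. Marcksl1, Zfand2a, Papss2, Ifitm3 and Tpbg were lower by means of 2.45 to 2.97, and all but Vldlr, Lpl and C5ar1 among the 15 leading genes had groups that did not overlap.

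Over the whole macrophage and monocyte list, all 25 measured genes had a mean difference below 0, 14 were lower in all numbers and 8 by 1 or more. These shares were 9.15% and 0.412% of all genes. No equal pair occurred in 16 of the 25, and 22.1% of all genes with none were lower in all numbers. The median was -0.25, -1.39 and -2.35 in numbers 1, 2 and 3. The list's mean level was 5.76 to 7.20 in the syngeneic and 4.38 to 5.78 in the anti-CD3/CD28 arrays, and 12 and 8 of its genes were above the array median on all 3 arrays. Chil3, a chitinase-like protein of alternatively activated macrophages, was lower by 1.46, 1.87 and 4.06. Of 30 inflammatory myeloid genes, 21 with no equal pair, 17 were lower in all numbers, with medians of -0.15, -1.08 and -3.97. Clec4d, a C-type lectin of myeloid cells, read 7.57, 7.44 and 9.23 against 4.45, 5.84 and 3.78, and Thbs1, thrombospondin 1, was lower by 1.66, 1.47 and 4.36. Among 23 fibroblast and matrix genes the median was -1.54 in number 2 and 0.00 in numbers 1 and 3. Their mean level was 8.07 on the syngeneic array of number 2, against 6.69 on its anti-CD3/CD28 array and 4.15 to 4.72 on the other 4. Col1a2, a collagen chain chosen after its values were seen, read 11.31 and 8.79 in number 2 and had the same value on both arrays of numbers 1 and 3 (4.37 and 4.00).

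Dendritic cell markers had both signs in number 1 and were mostly lower in numbers 2 and 3. In number 1 Cd86 differed by 0.71, Cd40 by 0.60, Cd80 by -0.57 and Cst3 by -0.61, and Clec10a, Cd209a, Ccl17, Batf3 and Siglech had exactly equal values (all but Cst3 chosen after their values were seen). Of 22 measured genes, 16 with no equal pair, 9 were lower in all numbers and none higher. Among all genes with no equal pair, 22.1% were lower and 18.8% higher. The list's medians were -0.06, -0.70 and -1.66. Its mean levels were 6.77 to 8.31 in the syngeneic and 6.39 to 6.72 in the anti-CD3/CD28 arrays. Ccl22, a chemokine of mature dendritic cells, read 11.45, 11.61 and 12.16 against 11.17, 9.80 and 9.95, and Cst3, cystatin C, 10.51, 11.24 and 12.21 against 9.89, 8.99 and 8.82. Neither overlapped. Mreg, melanoregulin, differed by -0.29, -3.17 and -4.92 and Ly75, the endocytic receptor DEC-205, by -0.28, -0.37 and -1.36. Of defining markers chosen after their values were seen, Itgax, which encodes the CD11c used for depletion, read 4.14, 6.52 and 5.13 against 4.17, 5.86 and 3.95, and the chemokine Ccl17 read 9.80, 10.93 and 11.87 against 9.80, 7.53 and 5.86. Of 11 genes of MHC class II and its regulators, which present antigen, 9 had no equal pair, 4 were lower in all numbers and the median was -0.37. H2-Aa was lower by 0.64, 1.15 and 0.64 and H2-Eb1 by 1.15, 0.55 and 0.89. Over 17 B cell and plasma cell markers, 10 with no equal pair, 3 were lower and 1 higher in all numbers, and the median was -0.14. Ighm, the immunoglobulin M heavy chain of B cells, was lower by 1.75, 1.55 and 0.69. Pax5 of the same list was higher by 0.14, 0.37 and 1.92.

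All 17 measured genes of lysosomes and their proteases had a mean difference below 0, 7 were lower in all numbers, and the medians were -0.48, -0.46 and -0.58. No equal pair occurred in 11 of the 17, and 22.1% of all genes with none were lower in all numbers. Single members differed more between numbers, such as Ctsh, a cathepsin chosen after its values were seen, at -2.002, -0.74 and -3.50. Grn, progranulin, read 10.58, 12.11 and 11.75 in the syngeneic and 9.68, 10.60 and 10.43 in the anti-CD3/CD28 arrays (-1.24 ± 0.20). Ctss and Ctsl, cathepsins that cut antigen and invariant chain, differed by -0.59 ± 0.09 and -1.15 ± 0.15. Psap, the precursor of the saposins, read 10.86, 10.07 and 10.06 against 9.85, 9.25 and 9.61, without overlap. Macrophage and dendritic cell markers differed between the same arrays, with the levels given above, and their part in this result was not tested.

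**Figure D4:**
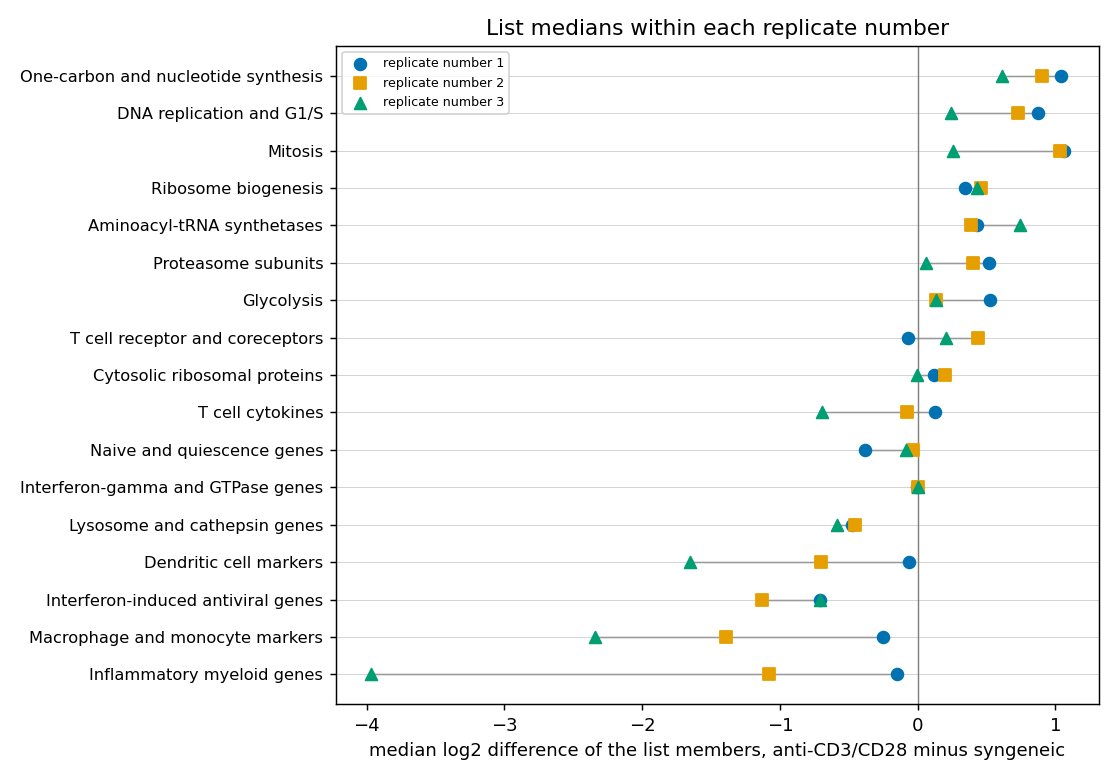
Median log2 difference (horizontal axis, anti-CD3/CD28 minus syngeneic) of the members of 17 gene lists within replicate numbers 1, 2 and 3. The macrophage, inflammatory and dendritic cell lists have medians of -0.25, -0.15 and -0.06 in number 1 and of -2.35, -3.97 and -1.66 in number 3, while the antiviral list lies between -1.13 and -0.71 in all 3.

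Interferon-induced antiviral genes were lower after anti-CD3/CD28 in every number. Of 28 measured genes 27 had a mean difference below 0, 21 were lower in all 3 numbers and none higher, against 9.15% and 7.8% of all genes. Of these 28, 22 had no equal pair, and among all genes with none the shares were 22.1% and 18.8%. The median was -0.96 (-0.71, -1.13 and -0.71), and 19 had an unadjusted p under 0.05. In all numbers 4 were lower by 1 or more, against 0.412% of all genes. Herc6, a ligase of the ubiquitin-like ISG15, read 7.84, 9.04 and 9.42 in the syngeneic and 5.91, 7.39 and 7.78 in the anti-CD3/CD28 arrays. Its groups did not overlap and the difference was -1.93, -1.65 and -1.64. Rsad2, the antiviral protein viperin, chosen after its values were seen, read 8.11, 9.77 and 9.18 against 6.97, 6.95 and 7.24, also without overlap. Ifit1, which binds foreign RNA caps, was lower by 1.91, 2.25 and 1.06, and Oas3, an oligoadenylate synthetase, by 0.94, 1.86 and 1.67. Rtp4 was lower by 0.69, 1.36 and 0.84. Chosen after their values were seen, Ifit3 and Mx1, the latter a GTPase that blocks viral replication, were lower by 1.03, 1.98 and 0.68 and by 0.72, 1.77 and 1.63.

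Medians of the other interferon lists lay closer to 0. Of 17 genes induced mainly by interferon gamma, such as guanylate-binding proteins, 0 were higher and 1 was lower in all numbers, with a median of -0.04. Only 6 of the 17 had no equal pair and could count, and among all genes with none 18.8% were higher and 22.1% lower. Mean differences ranged from -1.51 to 0.30, with 8 members above 0 and 9 below. Cxcl10, a chemokine of this list, differed by 0.00, -0.98 and -1.20. Of 21 genes of interferon signalling, 15 with no equal pair, 8 were lower and 1 higher in all numbers (median -0.36). Socs3, the feedback inhibitor of cytokine receptors, read 10.77, 10.30 and 11.09 against 9.40, 7.81 and 9.22, without overlap. Jak2, a kinase that associates with cytokine receptors, read 10.48, 10.17 and 11.00 against 9.98, 9.13 and 9.48. Irf2, an interferon regulatory factor, was lower by 0.49, 1.01 and 0.51. Macrophage, inflammatory and dendritic cell markers differed between the same arrays, with the values given above. In number 1 the medians of these lists were only -0.25, -0.15 and -0.06, although Csf1r and Lyz2 differed there by -4.43 and -4.38. The part of these markers in the antiviral result was not tested.

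Promoters of the antiviral list held the interferon-stimulated response element, written here as GAAA, any 2 bases and GAAA, on either strand, more often than promoters in general. It was found in 10 of the 20 members with a RefSeq promoter (50%), from 250 bases before to 50 after a start, and in 3.99% of 27018 genes. Members with it were lower in all 3 numbers in 9 of 10 cases and members without it in 7 of 10. The 250 bases before the start of Ifit1 (chr19:34640639-34640888, plus strand), Oas3 (chr5:120777660-120777909, minus strand) and Rsad2 (chr12:26456453-26456702, minus strand; RefSeq, GRCm38.p6) are shown because they are 3 of the antiviral genes described above, with the element in capitals.
Ifit1: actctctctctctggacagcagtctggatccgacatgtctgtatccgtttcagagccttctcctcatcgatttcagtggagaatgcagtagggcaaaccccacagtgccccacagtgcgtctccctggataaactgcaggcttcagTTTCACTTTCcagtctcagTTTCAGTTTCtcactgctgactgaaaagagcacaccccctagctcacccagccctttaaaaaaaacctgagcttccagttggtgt
Oas3: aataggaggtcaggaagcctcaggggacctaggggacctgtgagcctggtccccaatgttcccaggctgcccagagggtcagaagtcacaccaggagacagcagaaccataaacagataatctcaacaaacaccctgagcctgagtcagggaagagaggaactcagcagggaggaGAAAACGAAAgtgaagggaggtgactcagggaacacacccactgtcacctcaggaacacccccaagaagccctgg
Rsad2: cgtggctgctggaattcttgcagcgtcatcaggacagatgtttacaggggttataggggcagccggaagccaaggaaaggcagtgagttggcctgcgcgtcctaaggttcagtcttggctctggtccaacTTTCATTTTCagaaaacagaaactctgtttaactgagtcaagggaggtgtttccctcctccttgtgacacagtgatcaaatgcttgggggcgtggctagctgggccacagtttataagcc
Ifit1 held 2 matches, 104 and 85 bases before the start, Oas3 held 1 at 75 and Rsad2 held 1 at 120. Matches in Ifit1 and Rsad2 are on the other strand and read as TTTC, any 2 bases and TTTC. For 2 further lists the searched motif was found in fewer members: the E-box CACGTG, which MYC and related factors bind, in 4 of 19 nucleotide and one-carbon genes (21.05%) against 8.10% of genes, and a PU.1 motif, GAGGAAGT, in 1 of 18 macrophage genes (5.56%) against 3.69%. Nucleotide genes without the E-box letters were higher in all numbers in 13 of 15 cases, and those with them in 2 of 4. These matches describe letters in a window and were not tested against binding.

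Of 29 measured genes of the AGO pathway 1 was higher and 6 were lower in all numbers, and the median was -0.08. Only 13 of the 29 had no equal pair and could count here. Among all genes with no equal pair, 18.8% were higher and 22.1% lower. Prkra, a partner of Dicer chosen after its values were seen, was lower by 2.07 in number 3. Ago1 read 9.98, 9.39 and 9.80 in the syngeneic and 9.52, 8.86 and 9.48 in the anti-CD3/CD28 arrays, lower by 0.46, 0.53 and 0.31. Ago2, the main slicing member, and Dicer1, which cuts microRNA precursors, both chosen after their values were seen, differed by 0.14 ± 0.33 and -0.20 ± 0.14. Xpo5, the exporter of microRNA precursors, was higher by 0.49, 1.06 and 1.90 (1.15 ± 0.27), with overlapping groups. Of 6 measured microRNA host transcripts, only 1 with no equal pair, none had one direction in all 3 numbers. Mir155hg, the host of miR-155 in activated lymphocytes, differed by 0.75, 0.91 and -0.37. Protein amounts of AGO were not measured on these arrays.

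The allogeneic arrays share the anti-CD3/CD28 arrays' numbers and are set beside them for a few genes, as values only. Csf1r read 4.37, 5.91 and 6.63 in the allogeneic arrays, against 4.28, 5.58 and 4.26 with anti-CD3/CD28. Rsad2 read 6.97, 9.55 and 7.997 against 6.97, 6.95 and 7.24, and Psat1 read 10.90, 8.55 and 11.74 against 11.27, 11.02 and 11.94. Gzmb read 10.86, 10.09 and 11.23 against 10.88, 10.19 and 11.42. In number 1 the values of Csf1r, Rsad2 and Gzmb lay close together in both cultures. In numbers 2 and 3 Csf1r and Rsad2 were higher in the allogeneic arrays. Psat1 and Gzmb were lower in the allogeneic arrays in all 3 numbers, Psat1 most in number 2. None of the 4 passed limma, with adjusted p-values of 0.928 to 1.00.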

How the data were processed

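The authors deposited log2 signals of 45101 probe sets on 9 arrays, processed with RMA per the submitters' processing notes. The RMA software, its version and whether replicate numbers were normalised together: not given in the sources used here. Probe sets were named from the platform annotation, with symbols updated through RefSeq tables. Left out were 64 control probe sets, 9160 without a gene and 932 with several, and the probe set with the highest mean stood for each of 18193 genes. Differences were taken within replicate numbers and fitted with limma 3.58.1 in R 4.3.3 (lmFit, eBayes with an intensity trend, Benjamini-Hochberg) on all 9 arrays, with group and replicate number as terms. The titles give the numbers, and deviations from group means correlated between anti-CD3/CD28 and syngeneic arrays of one number at 0.844, 0.877 and 0.811, so the numbers were treated as pairs. The procedure was checked on simulated data. Genes, 39 lists and promoter motifs were chosen with earlier results of these data known. Named by rule were the 15 genes per direction with the largest smallest difference among genes with one sign in all 3 numbers and the 4 of each list with the smallest p. Other genes named, such as those just inside and outside the limit of 1, were chosen after their values were seen. Alternatives were other normalisations, filters, probe set rules, variance priors and left-out arrays. Tables and plots were made with Python 3.11.15 and matplotlib 3.10.9. The number of arrays limits the precision.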

Additional observations from a re-analysis of the deposited data

How the results depend on the processing

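No gene was called in either direction under any of the 19 alternatives of limma, so the replicate block changed no call: with no replicate block 0 genes passed, with a smallest adjusted p of 0.227. The smallest adjusted p over all alternatives was 0.0727, in the 6 arrays with no block. The mean differences of the 30 leading genes kept their direction in all alternatives. Counts of genes past 1 in all 3 numbers depended on the setting. Higher genes numbered 23 with quantile normalisation (12 shared with the 14) and 7 with the mean of all probe sets (5 shared), and 38 to 81 without one replicate number. Lower genes numbered 40 with the mean of all probe sets (37 shared with the 75) and 97 to 353 without one replicate number, where only 2 numbers need to pass. Of the list medians that lead the text, 3 moved by more than the SD over numbers: without one replicate number, ribosome biogenesis ranged from 0.40 to 0.51, mitosis from 0.64 to 1.25 and the lysosome list from -0.64 to -0.49, and the lysosome list stood at -0.68 with dim genes left out and -0.42 with the mean of all probe sets. Beyond what these settings themselves leave out, the cause was not tested. With 3 arrays per group no gene was called at any size, Csf1r at -4.60 included.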

Other observations

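Medians of the stress pathway lists lay near or below 0. Of 19 genes of the p53 response, 11 with no equal pair, 3 were lower and none higher in all 3 numbers, with a median of -0.23. Among all genes with no equal pair, 22.1% were lower and 18.8% higher. Fas, the death receptor, was lower by 0.96, 0.13 and 2.26, and Gadd45b, a stress sensor, by 0.73, 0.42 and 0.75. Of 24 genes of the unfolded protein and ATF4 responses, 17 with no equal pair, 4 were lower and 1 higher, with a median of -0.06. Dnajb9, a chaperone cofactor of the endoplasmic reticulum, read 8.04, 8.89 and 9.57 in the syngeneic and 6.88, 7.98 and 7.13 in the anti-CD3/CD28 arrays, without overlap.

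Of 18 genes of cholesterol synthesis and uptake, 11 with no equal pair, 5 were higher and none lower in all numbers, with a median of 0.16. Among all genes with no equal pair, 18.8% were higher and 22.1% lower. Dhcr7, of the last step of the pathway, was higher by 0.23, 1.34 and 0.24. The 33 measured genes of the mitochondrial respiratory chain had medians of 0.57, 0.16 and -0.11 in numbers 1, 2 and 3. Of these 33, 27 with no equal pair, 10 were higher and 1 lower in all numbers. Uqcrc1, a core subunit of complex III, was higher by 0.62, 0.37 and 0.73. Erythroid and platelet markers (2 of 10 lower in all numbers) and granulocyte and mast cell markers (3 of 16 lower) had medians of -0.18 and -0.25. In each of these lists only 5 members had no equal pair. Pf4, the platelet factor, was lower by 0.56, 1.04 and 1.63. None of these genes was called by limma.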
